A study of Mus musculus with 36 samples.

Results

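The 34 genes described here carry out the unfolded protein response of the endoplasmic reticulum (ER) and the ATF4 amino acid response. They were taken by symbol from the count table, which lists 43472 gene symbols, 23121 of them with at least 1 count, and all 34 were found in it. By role they fall into 13 genes of ER protein folding, 3 of ER-associated degradation, 5 transcription factors, 4 feedback targets of ATF4, and 9 enzymes and transporters of amino acids. The cells were primary enteric glial cells (EGCs), grown as neurospheres from the total intestine of WT C57BL/6J mouse embryos and differentiated in serum-containing medium. They were left unstimulated or stimulated with TME-CM, medium conditioned overnight by cells of digested orthotopic MC38 colon tumors, or with H-CM, conditioned in the same way by digested healthy colon, for 6, 12 or 24 h. Each of the 9 groups held 4 libraries, 36 in all, and no gene was deleted in any group. The labels do not say whether the 4 libraries of a group came from separate cultures, so the p-values measure only the spread between these libraries, which may be technical.

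The unfolded protein response is the answer of a cell to misfolded protein in the ER. Its sensors IRE1, ATF6 and PERK act through separate routes: IRE1 splices the Xbp1 mRNA so that it encodes an active transcription factor, ATF6 is cut and moves to the nucleus, and PERK slows translation and raises ATF4 protein. XBP1 and ATF6 switch on chaperones, disulfide isomerases and the machinery that degrades misfolded protein. ATF4 is also raised when amino acids run short, through the kinase GCN2, and switches on the synthesis of serine, asparagine and proline, amino acid uptake, and its own feedback genes. Counts from the 3′ end of mRNA read how much mRNA of a gene is present. They show neither the spliced form of Xbp1 nor the translation of Atf4.

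The response elements of both arms can be read in the promoters. RefSeq promoter entries of the GRCm38.p6 build were at hand for 29 of the 34 members, and the 250 bases before each start were searched on both strands for 3 motifs: the ER stress element (CCAAT, then 9 bases, then CCACG), the UPR element TGACGTGG and the ATF4 composite element TGATGNAA, where N is any base. The 5 letters CCACG can also lie within the reverse complement of the UPR element. The ER stress element was found in 6 of the 29 members (Hspa5, Hsp90b1, Calr, Pdia6, Creld2 and Dnajc3), beside 0.113% of all 32851 promoter entries. The ATF4 composite element was found in 3 members (Asns, Chac1 and Herpud1), beside 3.45% of all entries, and the UPR element in 0 members, beside 0.563%. The 250 bases of Herpud1 end in CCAAT, 9 bases and CCAC, so the last letter of an ER stress element there could not be read. The members were listed as genes of these responses, so a larger share of these elements among them is not an independent result. The 29 members have 31 promoter entries, while the shares beside them are of entries. A match is a stretch of letters and not a measured binding site. The sequences below are the 250 bases before the start of 6 members whose values are given in full, read 5′ to 3′ on the strand of the gene, with the matched element in capitals.
Hspa5, chr2:34771840-34772089, plus strand: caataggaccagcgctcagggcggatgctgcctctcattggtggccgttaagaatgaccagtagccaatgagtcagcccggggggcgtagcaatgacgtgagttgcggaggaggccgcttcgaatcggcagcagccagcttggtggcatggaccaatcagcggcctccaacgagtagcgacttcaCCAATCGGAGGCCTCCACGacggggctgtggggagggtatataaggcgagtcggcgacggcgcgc
Pdia6, chr12:17266339-17266588, plus strand: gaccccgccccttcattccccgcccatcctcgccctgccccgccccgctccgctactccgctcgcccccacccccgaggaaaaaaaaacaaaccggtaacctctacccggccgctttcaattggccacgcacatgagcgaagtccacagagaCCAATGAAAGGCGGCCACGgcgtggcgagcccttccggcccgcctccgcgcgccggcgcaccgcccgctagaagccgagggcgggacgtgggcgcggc
Creld2, chr15:88819396-88819645, plus strand: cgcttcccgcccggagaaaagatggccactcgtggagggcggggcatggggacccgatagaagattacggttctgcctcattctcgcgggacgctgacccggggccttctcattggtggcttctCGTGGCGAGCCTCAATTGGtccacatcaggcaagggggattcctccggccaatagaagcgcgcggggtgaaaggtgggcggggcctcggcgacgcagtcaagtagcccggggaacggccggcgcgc
Calr, chr8:84846932-84847181, minus strand: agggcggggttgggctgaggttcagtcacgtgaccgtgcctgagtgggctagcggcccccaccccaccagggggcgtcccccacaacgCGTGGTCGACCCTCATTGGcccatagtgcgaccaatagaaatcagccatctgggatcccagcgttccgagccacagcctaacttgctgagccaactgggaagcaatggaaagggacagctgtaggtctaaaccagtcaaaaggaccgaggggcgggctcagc
Herpud1, chr8:94386179-94386428, plus strand: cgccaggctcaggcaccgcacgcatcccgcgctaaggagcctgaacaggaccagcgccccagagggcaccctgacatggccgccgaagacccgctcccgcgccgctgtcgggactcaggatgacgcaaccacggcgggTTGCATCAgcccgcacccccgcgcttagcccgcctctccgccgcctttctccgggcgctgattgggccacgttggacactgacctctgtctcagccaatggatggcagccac
Chac1, chr2:119350992-119351241, plus strand: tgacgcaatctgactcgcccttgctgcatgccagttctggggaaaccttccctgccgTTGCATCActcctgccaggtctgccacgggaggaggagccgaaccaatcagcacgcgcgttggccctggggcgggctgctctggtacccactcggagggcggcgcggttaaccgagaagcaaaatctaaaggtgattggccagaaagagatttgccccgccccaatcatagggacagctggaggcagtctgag
In Creld2, Calr, Herpud1 and Chac1 the element lies on the opposite strand, so that its reverse complement is what is printed. The element of Asns lies 23 to 16 bases before its start, on the strand of the gene.

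Library totals ran from 13518 to 5244763 counts at 6 h, from 2005239 to 5961933 at 12 h and from 1608018 to 7552509 at 24 h. The lowest total, 13518, was that of H-CM replicate 4 of 6 h, which held only 103 counts over the 34 members, and the next lowest, 256453, was that of unstimulated replicate 3 of 6 h. The entry Yam1 took 43.9% to 48.6% of the counts in 3 H-CM libraries of 6 h and 10.97% to 14.2% in 3 TME-CM libraries of 6 h. The glial markers Sox10 and S100b had counts in all 36 libraries. Markers of smooth muscle were also present, with a summed level of 1310 to 7720 CPM (counts scaled to a common library total after TMM normalization, the unit of every level below). Of 4 epithelial markers, Epcam and Krt8 were at 0 in 30 and 34 of the 36 libraries, Cdh1 in 16 and Krt20 in 11. The highest levels of Cdh1 and Krt20 were 5.8 and 8.21 CPM.

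Setting TME-CM beside H-CM EGCs asks what medium conditioned by all cells of digested tumors does beyond medium conditioned by digested healthy colon. Of the 34 members, 33 passed the filter on low counts at 12 h (all but Cth), 34 at 24 h and 32 at 6 h (all but Cth and Phgdh). At 12 h Xbp1 (chr11:5520659-5525893, plus strand, GRCm38), the transcription factor mRNA that IRE1 splices, was the only member that passed the test, and it was higher with TME-CM. Its level was 40.9, 52.2, 43.8 and 55.0 CPM in the H-CM libraries and 82.9, 83.2, 90.7 and 111 CPM in the TME-CM libraries. The groups did not overlap, and the fold change was 1.92 (log2 0.94, SE 0.19, edgeR's quasi-likelihood test, adjusted p = 0.0094). Unstimulated EGCs were at 65.1, 63.9, 93.7 and 69.0 CPM, with replicate 3 inside the TME-CM range. Neither TME-CM (log2 0.32, SE 0.19, adjusted p = 0.59) nor H-CM (log2 -0.62, SE 0.19, adjusted p = 0.39) passed the test against them. All H-CM libraries nevertheless stood below all unstimulated ones. The call on Xbp1 was lost without TME-CM replicate 4 (log2 0.84, adjusted p = 0.053) and in a model of all 36 libraries (adjusted p = 0.25). 1 call among 33 members tested is 3.03%, and over all 12156 genes 1.89% were called, 1.22% as higher, so the share of members called was close to that of all genes.

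After Xbp1, the smallest p-values at 12 h belonged to Manf, to the transcription factor Atf5, which lay in the other direction and is given with the transcription factors, and to Creld2 and Edem1. Manf, a protein that is kept in the ER and secreted under ER stress, stood at 193, 171, 92.2 and 189 CPM with H-CM and at 271, 212, 233 and 400 CPM with TME-CM. The groups did not overlap, but the change did not pass edgeR's test (log2 0.80, SE 0.22, adjusted p = 0.080). Manf was called by DESeq2 (adjusted p = 0.027), with no filter on low counts (0.012) and with the replicate number as a block (0.0498). At 6 h its fold change lay in the other direction, lower with TME-CM (log2 -1.01, SE 0.44, edgeR, adjusted p = 0.79). Edem1, which directs misfolded glycoproteins to degradation, was at 29.9, 28.0, 27.4 and 34.5 CPM with H-CM and at 35.9, 40.8, 45.8 and 55.5 CPM with TME-CM (log2 0.57, SE 0.21, adjusted p = 0.25). Calr, a chaperone of glycoproteins, was at 838, 842, 700 and 729 CPM with H-CM and at 956, 984, 879 and 1034 CPM with TME-CM (log2 0.32, SE 0.15, adjusted p = 0.45). Herpud1, a membrane protein of the degradation complex, was at 77.7, 79.5, 53.2 and 65.1 CPM with H-CM and at 99.0, 83.2, 80.7 and 94.8 CPM with TME-CM (log2 0.38, SE 0.19, adjusted p = 0.48). For Manf, Edem1, Calr and Herpud1 the TME-CM libraries of 12 h all lay above the H-CM libraries of 12 h. With Xbp1 this held for 5 of the 34 members, and 0 members lay wholly below. These genes are given in full for their small p-values in this same comparison. The share of all genes without overlap was not computed, here or in the other comparisons, so no result about the members is read from such counts.

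The groups overlapped at 12 h for the other folding genes given in full. Creld2, an ER protein with a role in folding, ranged from 18.0 to 36.04 CPM with H-CM and from 22.7 to 62.5 CPM with TME-CM (log2 0.82, SE 0.30, adjusted p = 0.23). Pdia6, a disulfide isomerase, ranged from 265 to 304 CPM and from 286 to 420 CPM (log2 0.38, SE 0.16, adjusted p = 0.36). Hspa5, the main ER chaperone BiP, ranged from 1219 to 1558 CPM with H-CM and from 1539 to 1829 CPM with TME-CM (log2 0.31, SE 0.15, adjusted p = 0.48). Of the 13 folding genes, 12 had a positive fold change at 12 h and 0 passed the test, beside 49.9% of all genes with a positive change. Their median log2 change was 0.245 beside -0.0011 over all genes. Against unstimulated EGCs at 12 h, 8 of the 13 were positive with TME-CM (median log2 0.03), and 11 were negative with H-CM (median log2 -0.26). The other 8 folding genes, Hsp90b1 (GRP94), Pdia3, Pdia4, Hyou1, Dnajb9, Dnajb11, Dnajc3 and Sdf2l1, which are chaperones, isomerases and co-chaperones of the ER, overlapped between the groups and had log2 changes from -0.0041 for Dnajb9 to 0.33 for Hsp90b1. Sel1l, a scaffold of the degradation complex, was at log2 -0.0087. Over all members, 7 of 33 had an unadjusted p under 0.05, beside 10.6% of all genes. At 12 h, 2 of the 5 smooth muscle markers were called lower and 1 of 4 fibroblast markers higher with TME-CM than with H-CM, and at 24 h 3 of 5 and 3 of 4. The part of these cells in the folding values was not tested.

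**Figure D1:**
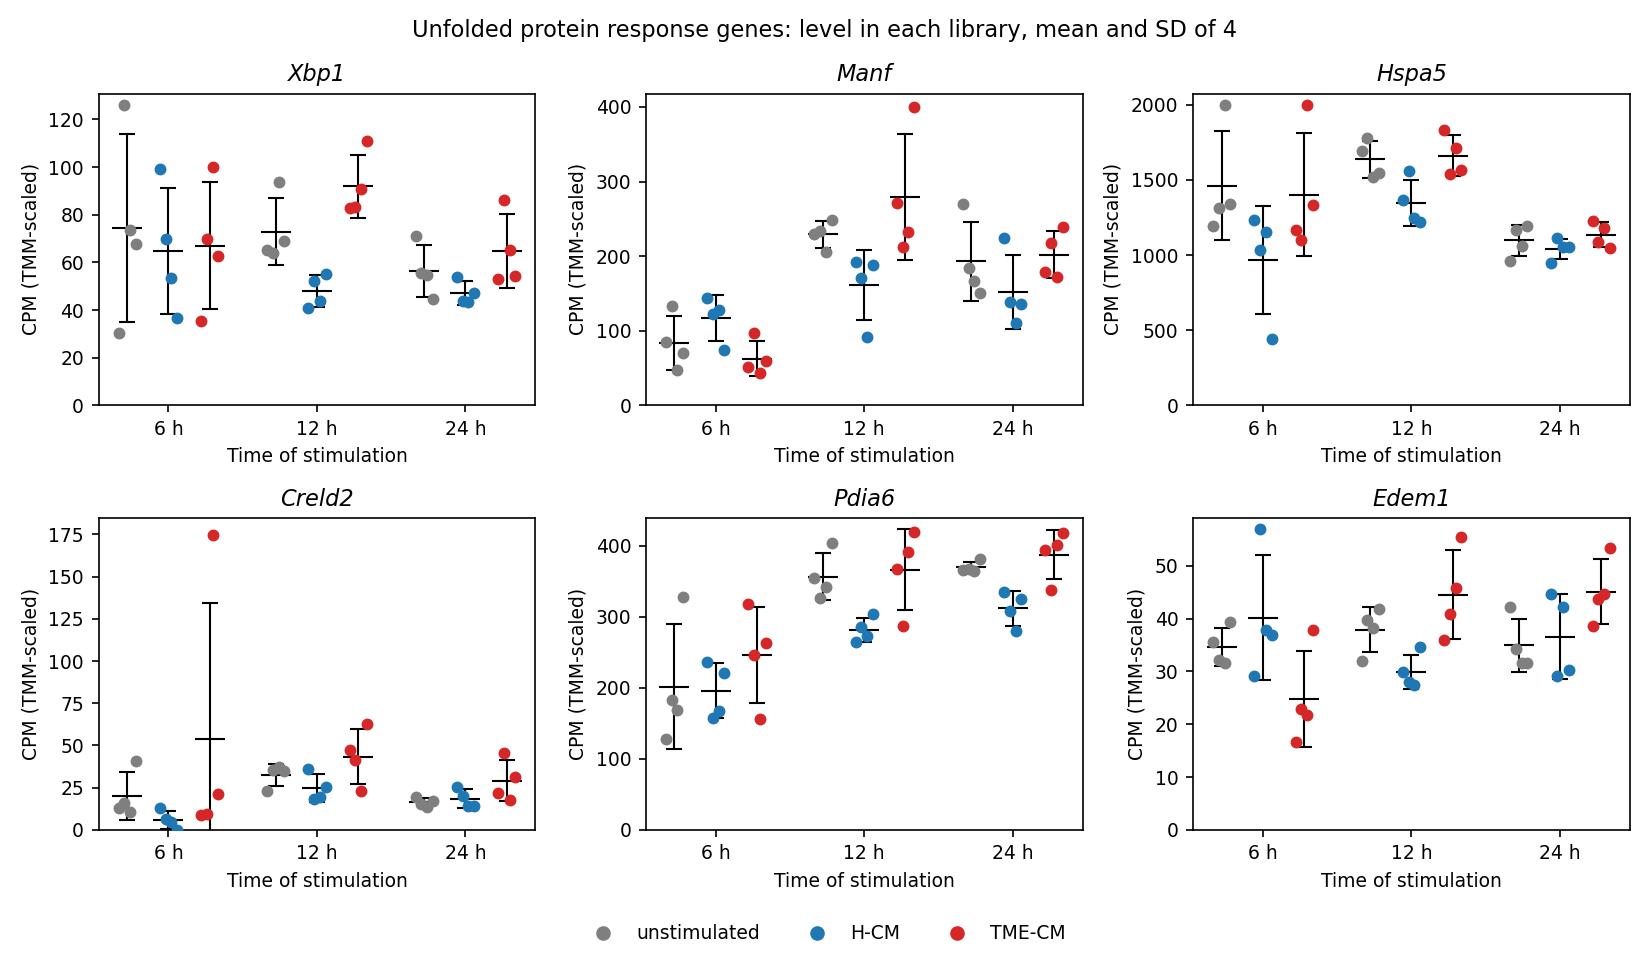
Level in CPM on TMM-scaled totals (vertical axes, from 0) of Xbp1, Manf, Hspa5, Creld2, Pdia6 and Edem1 in each of the 36 libraries, by time of stimulation (horizontal axes). Points are libraries, bars the mean and SD of 4, and the bar of Creld2 in TME-CM at 6 h is cut at 0. At 12 h the TME-CM libraries of Xbp1, 82.9 to 111 CPM, all lie above the H-CM libraries, 40.9 to 55.0 CPM, with the unstimulated libraries between 63.9 and 93.7 CPM.

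At 24 h no member passed the test between TME-CM and H-CM (edgeR, 0 of 34, 5 with an unadjusted p under 0.05, 1 by DESeq2's Wald test), while 5.40% of 12713 genes were called and 2036 of the 12713 had an unadjusted p under 0.05, a larger share than among the members. Xbp1 was at 54.1, 43.8, 43.3 and 47.0 CPM with H-CM and at 53.2, 86.3, 65.3 and 54.4 CPM with TME-CM, and the groups overlapped (log2 0.45, SE 0.17, adjusted p = 0.16). Pdia6, the member that DESeq2 called, was at 335, 308, 279 and 325 CPM with H-CM and at 394, 338, 401 and 418 CPM with TME-CM, without overlap (edgeR, log2 0.31, SE 0.11, adjusted p = 0.12). Manf was called without H-CM replicate 1 (log2 0.65, adjusted p = 0.034) and stood at log2 0.40 (SE 0.21, adjusted p = 0.37) with all libraries. Again 12 of the 13 folding genes had a positive fold change, beside 50.6% of all genes, with a median log2 of 0.19 beside 0.0049 over all genes. In the change of the TME-CM over H-CM effect from 12 h to 24 h, edgeR called 0 members and 0% of 13105 genes, with 0 members and 3.33% of all genes at an unadjusted p under 0.05 and 0 members called by DESeq2. The value for Xbp1 was -0.47 (SE 0.25), so the smaller fold change at 24 h was not shown to differ from that at 12 h.

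**Figure D2:**
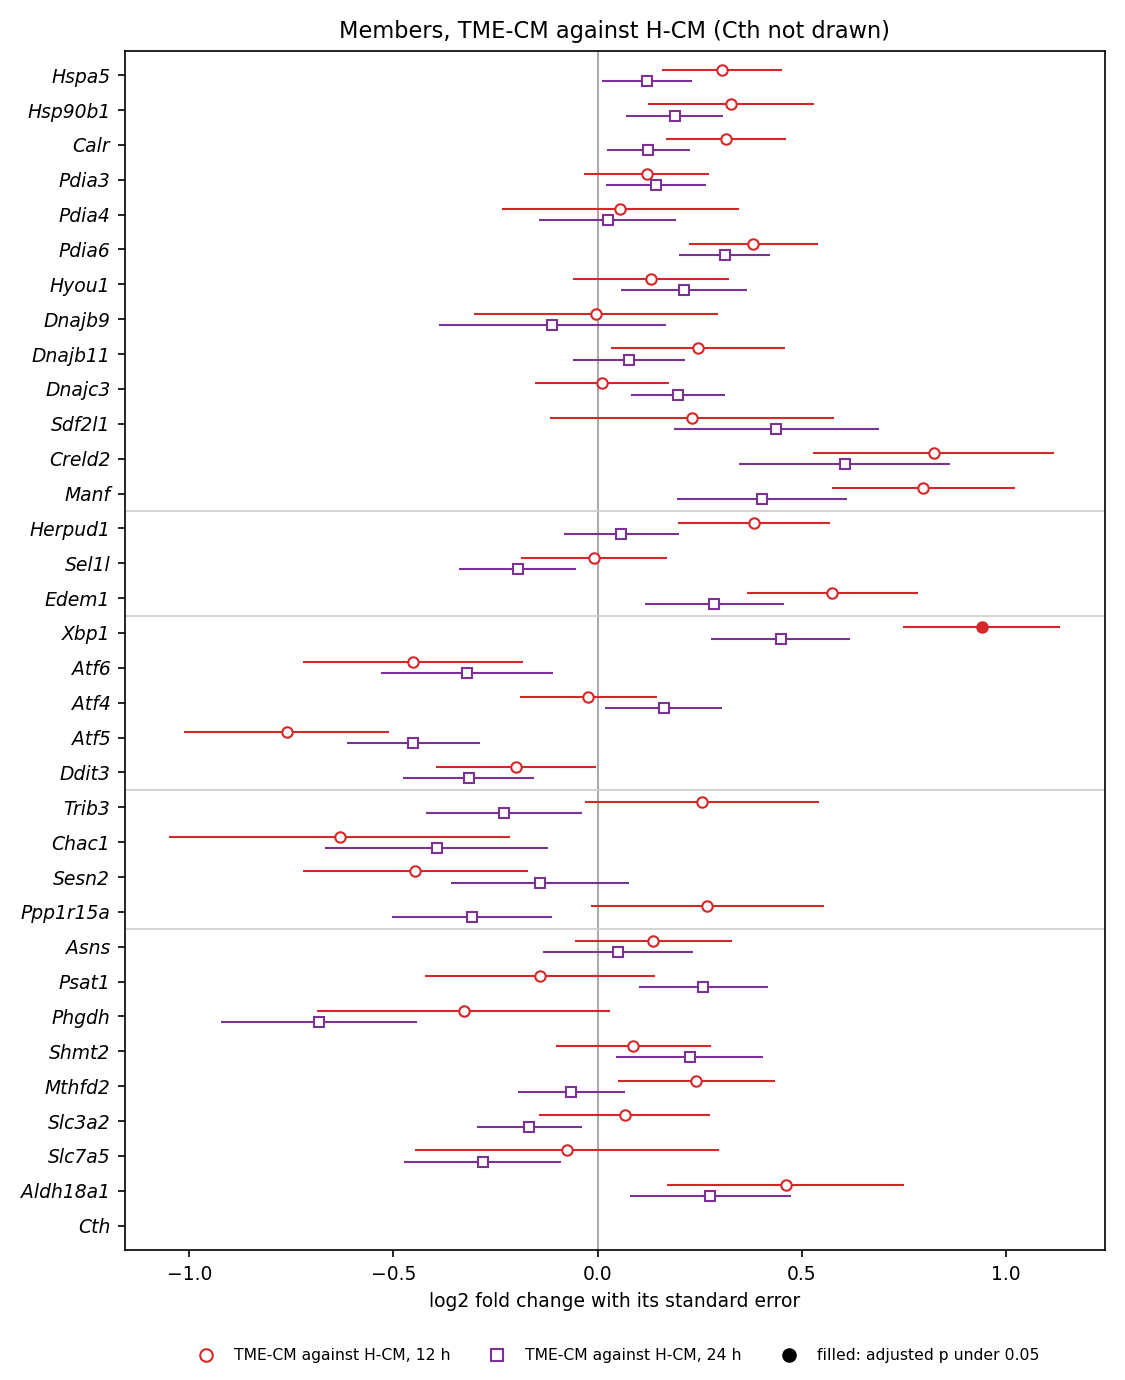
Log2 fold change with its standard error (horizontal axis) of TME-CM against H-CM for each member (vertical axis, grouped by role) at 12 h (circles) and 24 h (squares). Filled symbols passed the test, and Xbp1 at 12 h, at 0.94, is the only one. Among the 13 folding genes at the top, 12 lie to the right of 0 at each time.

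A folding score, the mean log2 CPM of the 16 folding and degradation genes after centring each gene over the 36 libraries, was computed as a description. At 24 h it was 0.068 ± 0.066 with H-CM (SD, n = 4), 0.10 ± 0.069 in unstimulated EGCs and 0.25 ± 0.065 with TME-CM. All 4 TME-CM libraries, 0.17 to 0.32, lay above all H-CM and all unstimulated libraries of 24 h. At 12 h the score was 0.11 ± 0.10 with H-CM, 0.31 ± 0.072 in unstimulated EGCs and 0.38 ± 0.22 with TME-CM. There the TME-CM libraries overlapped with both other groups, since TME-CM replicate 2 stood at 0.052, and the H-CM libraries all lay below the unstimulated ones. The TME-CM minus H-CM difference was 0.27 at 12 h and 0.18 at 24 h.

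**Figure D3:**
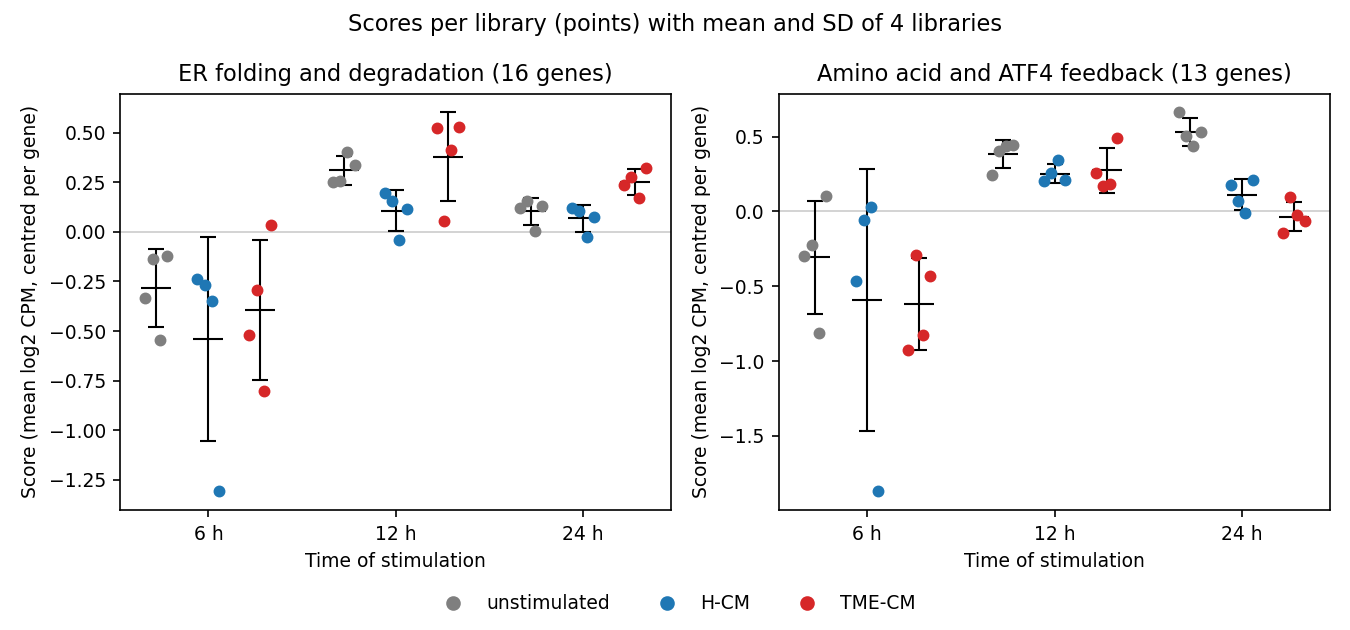
Folding score (left) and amino acid score (right), each a mean log2 CPM centred per gene (vertical axes), in each library by time (horizontal axes). Points are libraries and bars the mean and SD of 4. At 24 h the TME-CM libraries lie above both other groups in the folding score, and both conditioned media lie below the unstimulated libraries in the amino acid score, which are at 0.44 to 0.66.

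Of the transcription factors, Atf4 overlapped between the media at 12 h, with 262, 345, 290 and 319 CPM with H-CM and 318, 305, 331 and 238 CPM with TME-CM (log2 -0.02, SE 0.17, adjusted p = 0.98). Atf5, a related factor that ATF4 induces, was the only transcription factor called as lower with TME-CM than in unstimulated EGCs at 24 h. At 24 h it was at 134, 230, 246 and 196 CPM in unstimulated EGCs and at 120, 97.8, 129 and 148 CPM with TME-CM, and fell by 0.70 on the log2 scale (SE 0.16, adjusted p = 0.0052), although unstimulated replicate 1 lay within the TME-CM range. H-CM libraries, at 182, 178, 148 and 170 CPM, did not pass the test against unstimulated ones (log2 -0.25, SE 0.16, adjusted p = 0.66). Against H-CM, Atf5 in TME-CM EGCs was at log2 -0.76 (SE 0.25, adjusted p = 0.17) at 12 h and -0.45 (SE 0.16, adjusted p = 0.13) at 24 h. It was called at 12 h without H-CM replicate 1 (log2 -0.94, adjusted p = 0.039) and at 24 h without unstimulated replicate 1, which enters that fit only through the shared spread (adjusted p = 0.033). Atf5 shares 82 exon bases with each of Nup62 and Il4i1 on the opposite strand, and whether counting used strand is not given in the sources used here. Ddit3, the factor CHOP linked to cell death under ER stress, was at 89.8, 96.4, 96.5 and 107 CPM in unstimulated EGCs and at 56.5, 94.4, 86.9 and 57.2 CPM with TME-CM at 24 h (log2 -0.42, SE 0.16, adjusted p = 0.12), and it was called without TME-CM replicate 2 (log2 -0.55, adjusted p = 0.021). At 6 h all TME-CM libraries of Ddit3 lay below all H-CM libraries, without a call (edgeR, log2 -0.98, SE 0.57, adjusted p = 0.90). Ddit3 shares 68 exon bases with Mars, also on the opposite strand. Atf6, the factor cut in the Golgi, was at log2 -0.45 (SE 0.21, adjusted p = 0.23) in TME-CM against unstimulated EGCs at 24 h and was called without unstimulated replicate 1 (log2 -0.62, adjusted p = 0.030).

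The genes of amino acid synthesis and transport gave the largest group of calls, and it was against unstimulated EGCs at 24 h. With TME-CM 6 of the 34 members tested (17.6%) were lower: Slc7a5, Mthfd2, Phgdh and Asns of this group, the feedback target Chac1, and Atf5. Over all 12713 genes 9.52% were called, 4.70% as lower. A model of all 36 libraries called 0 of the 34, with adjusted p-values of 0.33 to 1.0 for these 6. All 9 genes of the group had a negative fold change, with a median log2 of -0.64 beside 0.0044 over all genes, and 7 of them had an unadjusted p under 0.05, beside 19.2% of all genes.

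Slc7a5, the light chain of the LAT1 transporter of large neutral amino acids, was at 53.4, 93.2, 88.6 and 74.9 CPM in unstimulated EGCs, at 58.6, 46.5, 42.1 and 48.5 CPM with H-CM, and at 28.0, 38.0, 42.5 and 52.4 CPM with TME-CM. Every TME-CM library lay below every unstimulated one, and the gene fell by 0.95 on the log2 scale (SE 0.19, adjusted p = 0.0014). Mthfd2, an enzyme of mitochondrial folate metabolism, was at 145, 125, 137 and 145 CPM in unstimulated EGCs and at 93.6, 73.7, 93.1 and 92.3 CPM with TME-CM. These groups did not overlap, and Mthfd2 fell by 0.65 (SE 0.13, adjusted p = 0.0014). Chac1, which breaks down glutathione, was at 14.3, 12.98, 14.2 and 12.9 CPM in unstimulated EGCs and at 5.91, 9.59, 5.52 and 3.69 CPM with TME-CM, and it fell by 1.20 (SE 0.26, adjusted p = 0.0035), without overlap. The calls on Slc7a5, Mthfd2, Chac1 and Atf5 held without each of the 12 libraries in turn. The other feedback targets overlapped between these groups: Trib3, a pseudokinase that restrains ATF4, was at log2 -0.18 (adjusted p = 0.72), Sesn2, a sensor of leucine, at -0.35 (adjusted p = 0.43), and Ppp1r15a (GADD34), which restores translation, at -0.10 (adjusted p = 0.87).

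Phgdh, the first enzyme of serine synthesis, was at 17.8, 13.5, 20.2 and 20.4 CPM in unstimulated EGCs, at 12.6, 12.8, 15.8 and 23.3 CPM with H-CM, and at 7.79, 9.59, 10.6 and 11.1 CPM with TME-CM. All TME-CM libraries lay below both other groups. Against unstimulated EGCs it fell by 0.88 (SE 0.24, adjusted p = 0.016), and against H-CM it was at log2 -0.68 (SE 0.24, adjusted p = 0.12). The first of these calls was lost without TME-CM replicate 1 (adjusted p = 0.073), unstimulated replicate 3 (0.061) or unstimulated replicate 4 (0.059). Asns, asparagine synthetase, was at 81.5, 75.8, 65.0 and 62.3 CPM in unstimulated EGCs, at 35.3, 49.8, 53.0 and 36.2 CPM with H-CM, and at 43.6, 66.0, 40.9 and 35.2 CPM with TME-CM. It fell by 0.64 with TME-CM (SE 0.18, adjusted p = 0.025), with TME-CM replicate 2 inside the unstimulated range. That call was lost without TME-CM replicate 1 (adjusted p = 0.076), 3 (0.090) or 4 (0.10), or without unstimulated replicate 1 (0.053) or 2 (0.072).

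With H-CM 2 members were lower than in the same unstimulated libraries at 24 h (5.88% of 34), Mthfd2 and Psat1, beside 2.03% of all genes called and 0.960% called as lower. Mthfd2 was at 78.0, 107, 87.1 and 98.0 CPM with H-CM and fell by 0.58 (SE 0.13, adjusted p = 0.016). Psat1, the second enzyme of serine synthesis, was at 121, 83.8, 92.4 and 108 CPM in unstimulated EGCs and at 53.9, 58.4, 63.4 and 81.7 CPM with H-CM, without overlap, and fell by 0.67 (SE 0.16, adjusted p = 0.023). With TME-CM it was at 66.9, 91.3, 70.0 and 79.0 CPM and at log2 -0.41 (SE 0.15, adjusted p = 0.12), and was called without TME-CM replicate 2 (adjusted p = 0.042). Asns (log2 -0.69, SE 0.18, adjusted p = 0.0503) and Slc7a5 (log2 -0.67, SE 0.19, adjusted p = 0.074) missed the threshold with H-CM and passed it by DESeq2 (adjusted p = 0.022 and 0.044). Asns was called by edgeR without H-CM replicate 3 (adjusted p = 0.048), TME-CM replicate 2 (0.013) or TME-CM replicate 4 (0.042), and Slc7a5 without TME-CM replicate 1 (0.044) or unstimulated replicate 1 (0.011). The call on Mthfd2 was lost without H-CM replicate 1 (adjusted p = 0.070) or 3 (0.071), or without unstimulated replicate 3 (0.052) or 4 (0.062). The call on Psat1 was lost without H-CM replicate 1 (0.095), 2 (0.10) or 3 (0.076), or without unstimulated replicate 1 (0.053) or 4 (0.080). In a model of all 36 libraries both calls were lost (adjusted p of 1 for each).

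The fold changes of both media are against the same 4 unstimulated libraries, so the values of the media given side by side are not independent. Between TME-CM and H-CM at 24 h, 4 of the 9 genes had a positive and 5 a negative fold change, with a median log2 of -0.06, and 0 passed the test. The remaining members of the group stood at log2 -0.37 (Slc3a2, the heavy chain that pairs with Slc7a5, adjusted p = 0.078), -0.13 (Shmt2, mitochondrial serine hydroxymethyltransferase) and -0.24 (Aldh18a1, of proline synthesis) in TME-CM against unstimulated EGCs. Cth, which makes cysteine from cystathionine, had at most 2.76 CPM in any library, and it failed the filter on low counts at 6 h and 12 h. The amino acid score, made like the folding score from these 9 genes and the 4 feedback targets, was 0.53 ± 0.095 in unstimulated EGCs at 24 h (SD, n = 4), 0.11 ± 0.10 with H-CM and -0.03 ± 0.099 with TME-CM. The libraries of both media lay below all unstimulated libraries, by a mean of 0.42 for H-CM and 0.57 for TME-CM, and overlapped with each other. At 12 h the score was 0.38 ± 0.095, 0.25 ± 0.064 and 0.27 ± 0.15 in the same order.

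Markers of some other cell types also differed between the media and unstimulated EGCs at 24 h. The summed levels of glial, neuronal and macrophage markers overlapped between unstimulated, H-CM and TME-CM libraries of that time. At 24 h all 5 of smooth muscle (Acta2, Myh11, Tagln, Cnn1 and Actg2) were called lower than in unstimulated EGCs with each medium, and their summed level was 6710 to 7720 CPM in unstimulated libraries, 3090 to 3820 CPM with H-CM and 1610 to 2360 CPM with TME-CM. The summed level of 3 endothelial markers was 34.4 to 51.9 CPM in unstimulated, 30.7 to 60.4 CPM in H-CM and 10.2 to 24.7 CPM in TME-CM libraries, and that of 2 markers of interstitial cells of Cajal was 78.5 to 132, 74.8 to 135 and 27 to 65.7 CPM in the same order. Between TME-CM and unstimulated EGCs 1 of 2 endothelial markers tested and 1 of 2 markers of interstitial cells were called lower, and of 4 fibroblast markers 2 were higher and 1 lower. The part of these cells in the amino acid result was not tested, and in such bulk libraries fewer cells of a type cannot be told apart from less RNA per cell.

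**Figure D4:**
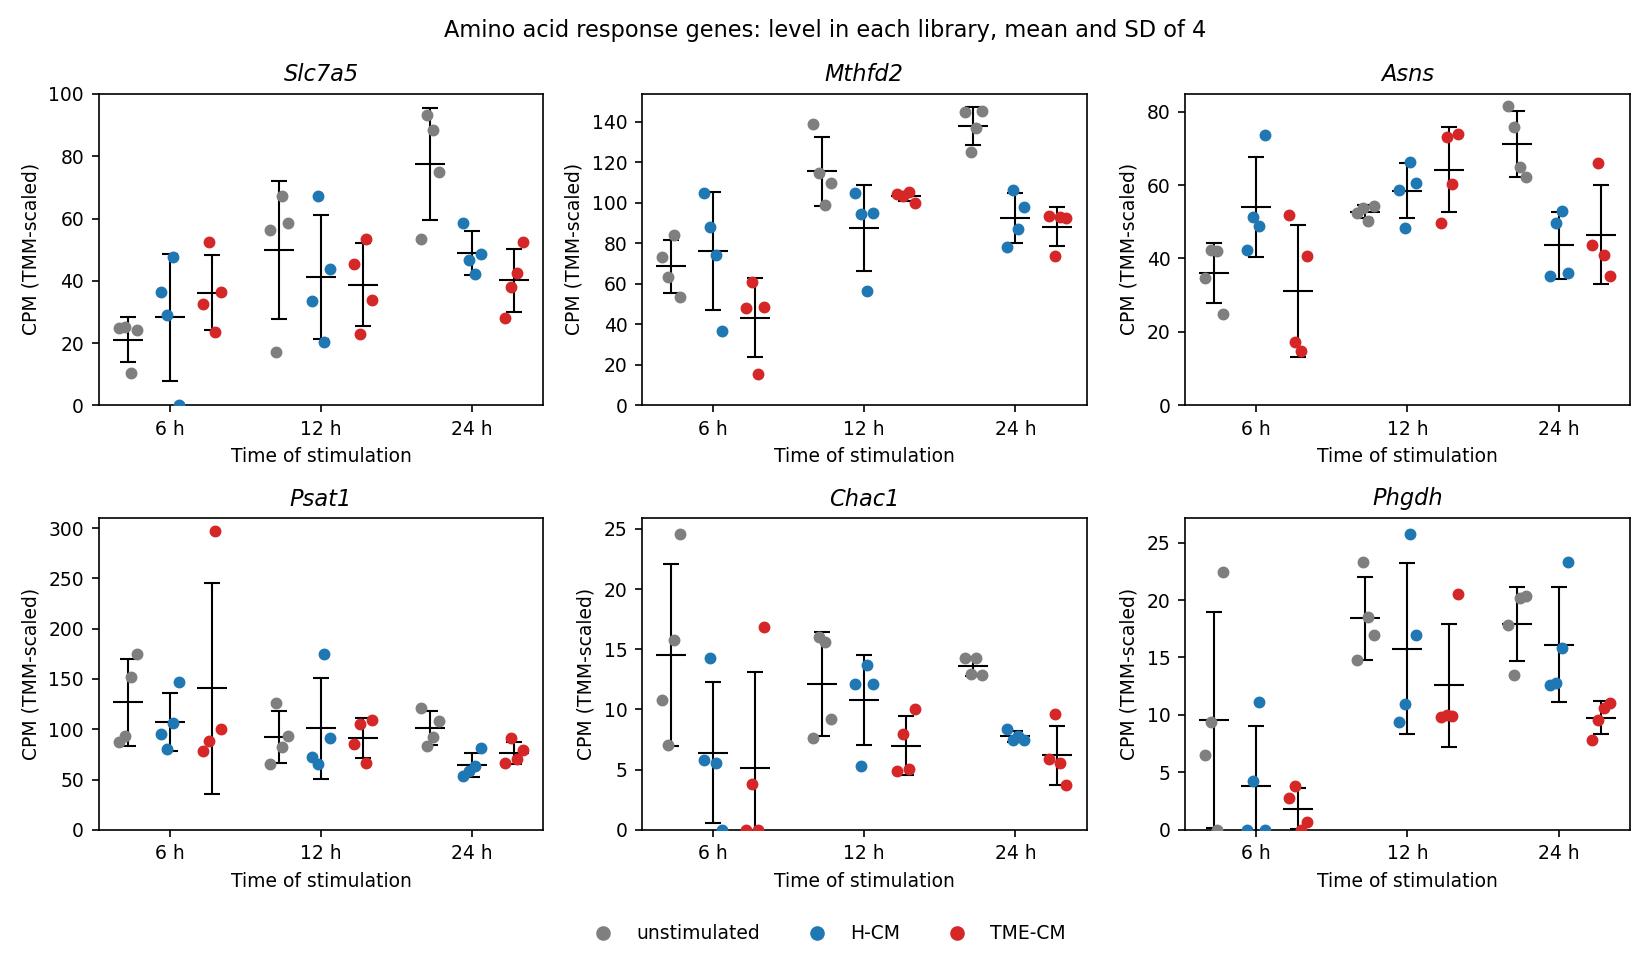
Level in CPM on TMM-scaled totals (vertical axes, from 0) of Slc7a5, Mthfd2, Asns, Psat1, Chac1 and Phgdh in each library by time of stimulation (horizontal axes). Points are libraries and bars the mean and SD of 4. At 24 h the TME-CM libraries of Slc7a5, Mthfd2, Chac1 and Phgdh lie below every unstimulated library, for Mthfd2 at 73.7 to 93.6 CPM against 125 to 145 CPM.

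**Figure D5:**
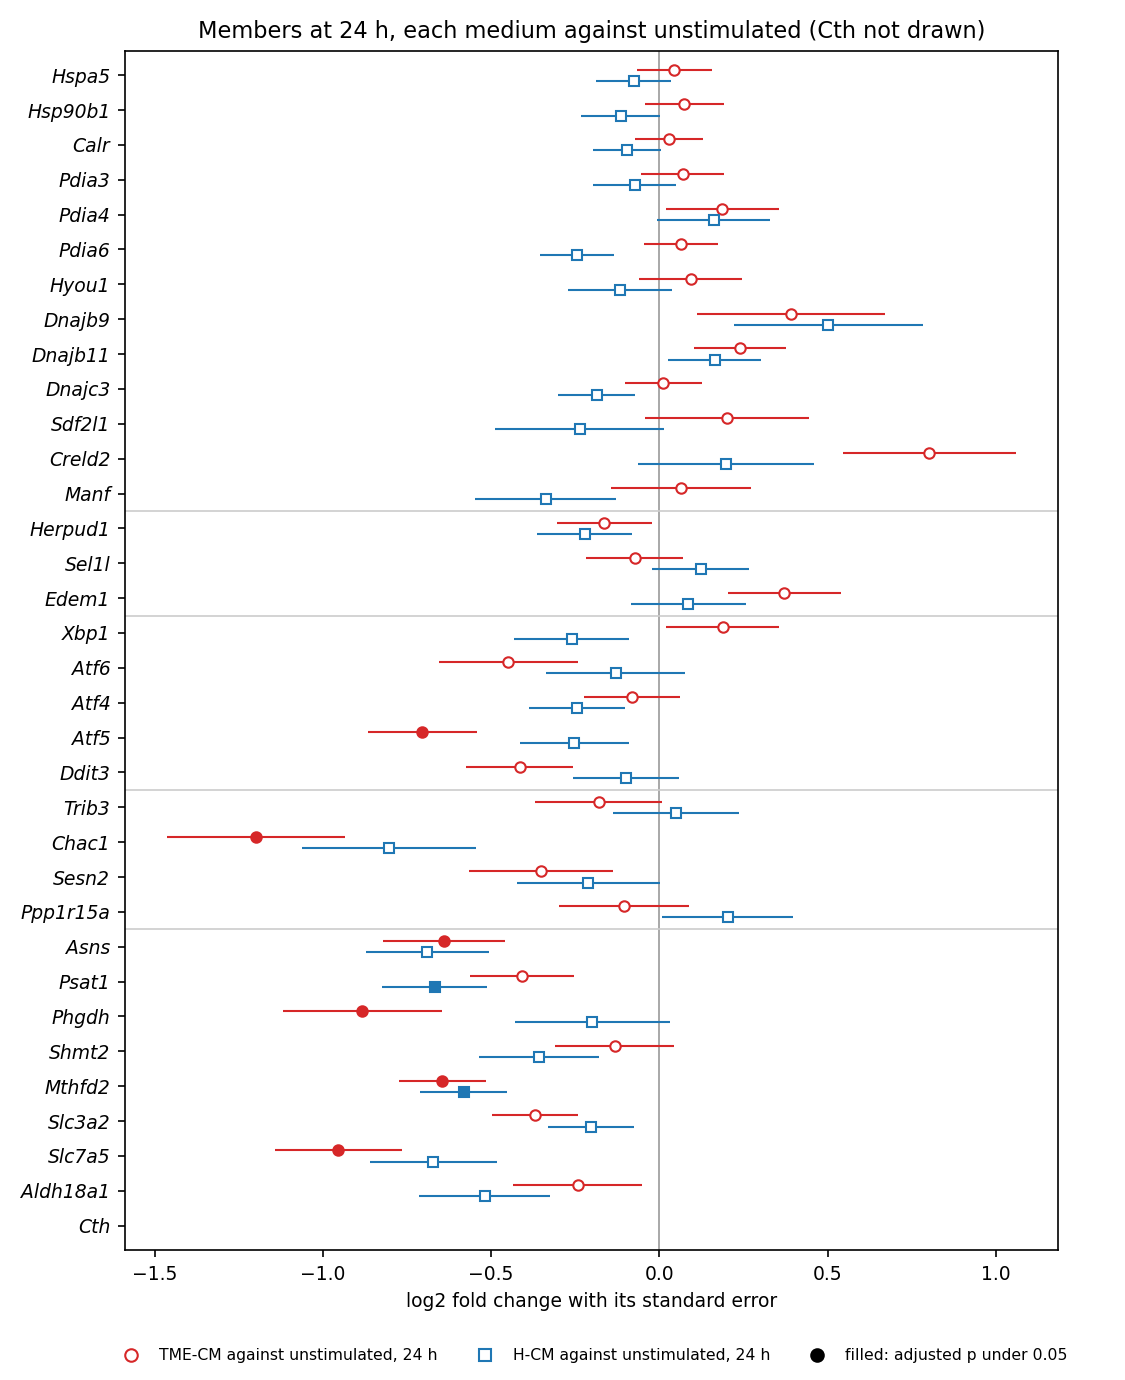
Log2 fold change with its standard error (horizontal axis) of TME-CM (circles) and H-CM (squares) against the same unstimulated libraries at 24 h for each member (vertical axis, grouped by role). Filled symbols passed the test. The 6 calls for TME-CM, from -1.20 for Chac1 to -0.64 for Asns, and the 2 for H-CM all lie to the left of 0.

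The folding genes had fold changes of the other sign. In TME-CM against unstimulated EGCs at 24 h, all 13 had a positive fold change and 0 passed edgeR's test, 1 of them, Creld2, with an unadjusted p under 0.05. Creld2 was at 19.3, 15.5, 13.5 and 17.1 CPM in unstimulated EGCs and at 22.1, 45.7, 17.8 and 31.2 CPM with TME-CM, a fold change of 1.74 (log2 0.80, SE 0.26, adjusted p = 0.053), and DESeq2 called it (adjusted p = 0.030). The groups overlapped only through TME-CM replicate 3. It was called by edgeR without that library (adjusted p = 0.015), and without TME-CM replicate 1 (0.042), H-CM replicate 1 (0.042) or unstimulated replicate 1 (0.045). The median log2 change of the 13 was 0.07, beside 0.0044 over all genes, of which 50.7% had a positive change. At 12 h, TME-CM against unstimulated EGCs gave 0 calls among 33 members, 0 with an unadjusted p under 0.05 and 0 by DESeq2, while 4.41% of all genes were called and 12.3% had such an unadjusted p. H-CM against unstimulated EGCs at 12 h also gave 0 calls by edgeR and by DESeq2, with 5 members at an unadjusted p under 0.05, beside 5.66% of all genes, and 0.403% of all genes called.

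Between 12 h and 24 h, Hspa5 fell in TME-CM EGCs. It was at 1829, 1539, 1710 and 1565 CPM at 12 h and at 1224, 1086, 1183 and 1047 CPM at 24 h, without overlap, and fell by 0.54 on the log2 scale (SE 0.12, adjusted p = 0.026). It was the only member called of 33 (3.03%), beside 0.626% of all 13105 genes. The call was lost without TME-CM replicate 1 (adjusted p = 0.12) or 3 (0.074) of 12 h, without TME-CM replicate 1 (0.052), 2 (0.081), 3 (0.064) or 4 (0.12) of 24 h, with no filter on low counts (0.13) and in a model of all 36 libraries (1). The same gene stood at log2 -0.58 (SE 0.12, adjusted p = 0.11) in unstimulated EGCs, from 1695, 1779, 1522 and 1549 CPM to 963, 1168, 1063 and 1194 CPM, and there it was called by DESeq2 (adjusted p = 0.00045) and by edgeR without H-CM replicate 3 of 12 h (0.043). With H-CM Hspa5 was at log2 -0.37 (SE 0.12, adjusted p = 0.53). All 24 h libraries of Hspa5 lay below all its 12 h libraries in each of the 3 stimulations. Trib3 was at log2 -0.86 (adjusted p = 0.12) in TME-CM EGCs and was called without H-CM replicate 3 of 12 h (0.033). Unstimulated EGCs had 0 members called by edgeR, 6 at an unadjusted p under 0.05 and 1 by DESeq2, with 0.0153% of all genes called and 5.30% at such an unadjusted p. H-CM EGCs had 0, 4 and 0, with 0.00763% of all genes called and 6.23% at such a p.

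At 6 h the spread between libraries was widest and no member passed edgeR's or DESeq2's test. Of 32 members tested, 3 had an unadjusted p under 0.05 in TME-CM against H-CM, 0 in TME-CM against unstimulated and 1 in H-CM against unstimulated EGCs, beside 6.07%, 6.19% and 0.627% of 9256 genes with such a p. After adjustment 0.0972%, 0.454% and 0% of these genes were called. Atf5 was at 42.3, 86.5, 75.6 and 36.8 CPM with H-CM, the last from 1 count, and at 338, 105, 412 and 231 CPM with TME-CM, all above H-CM (log2 2.02, SE 0.52, adjusted p = 0.19). Its level was 97.2, 118, 36.8 and 307 CPM in unstimulated EGCs. Without the 2 libraries under 500000 counts, a choice made after the data were seen, Atf5 stood at log2 2.03 (SE 0.49, adjusted p = 0.18). It was called by edgeR without TME-CM replicate 2 (log2 2.30, adjusted p = 0.037) and when only these 2 groups were fitted (adjusted p = 0.049). Atf5 was also called with no filter on low counts (adjusted p = 0.010) and in a model of all 36 libraries (adjusted p = 0.0018). The change of the TME-CM over H-CM effect from 6 h to 12 h, a test also added after the data were seen, was -2.82 for Atf5 (SE 0.60, adjusted p = 0.12), with 0 members and 0% of 12668 genes called and 5 members and 9.69% of all genes at an unadjusted p under 0.05. For Manf this change was 1.80 (SE 0.45, edgeR, adjusted p = 0.16). TME-CM replicates 1, 3 and 4, the highest in Atf5, were those with the low Yam1 share given above. Unstimulated replicate 4, at 307 CPM of Atf5, had 13.1%. The part of that share in the result was not tested.

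Other genes of these pathways were counted from lists of 38 unfolded protein response genes and 42 ATF4 and amino acid response genes. Among 35 of the former tested at 24 h, 1 was called between TME-CM and H-CM, beside 5.40% of all genes. This was Ero1l, the oxidase that passes oxidizing power to the disulfide isomerases, at 27.9 ± 2.85 CPM with H-CM and 42.5 ± 4.63 CPM with TME-CM (SD, n = 4; log2 0.59, SE 0.15, adjusted p = 0.018). At 12 h the count was 0 of 35. Among the ATF4 and amino acid response genes, 2 of 39 were higher and 1 lower at 12 h, beside 1.22% and 0.675% of all genes, and 1 of 40 was higher at 24 h, beside 2.75%. Cebpb, an inflammatory transcription factor, was at 61.2 ± 18.6 CPM with H-CM and 166 ± 49.9 CPM with TME-CM (log2 1.45, SE 0.27, adjusted p = 0.0041). Slc7a11, the cystine transporter, was at 14.8 ± 2.20 CPM and 37.1 ± 14.5 CPM (log2 1.34, SE 0.32, adjusted p = 0.033). Gdf15, a stress-induced cytokine, fell by 1.07 on the log2 scale, from 210.5 ± 87.9 CPM with H-CM to 100.4 ± 27.5 CPM with TME-CM (SE 0.27, adjusted p = 0.042). Stc2, a secreted glycoprotein, was at 9.52 ± 0.937 CPM with H-CM and 25.3 ± 3.02 CPM with TME-CM at 24 h (log2 1.39, SE 0.24, adjusted p = 0.00074).

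Against unstimulated EGCs at 24 h, 5 of the 40 ATF4 and amino acid response genes were higher and 6 lower with TME-CM, beside 4.82% and 4.70% of all genes. They are named here after their values were seen. The 6 lower ones were the tRNA synthetases Gars and Iars, the aminotransferase Got1, the transporters Slc7a1 and Slc1a4, and the translation repressor Eif4ebp1, by 0.47 to 0.87 on the log2 scale. The 5 higher ones were Eif2ak2, an interferon-induced kinase, Cebpb, Ddit4, Stc2 and Mthfd1l. With H-CM at 24 h, 1 of the 40 was higher, Eif2ak2 (log2 1.59, edgeR, adjusted p = 0.020), and 1 lower, Eif4ebp1 (log2 -0.55, adjusted p = 0.041). That is beside 1.07% and 0.960% of all genes. At 12 h, 4 of 39 were higher with TME-CM and 2 with H-CM, beside 2.67% and 0.354% of all genes, and 0 were lower. Eif2ak2 and Slc7a11 were among them with both media. Among the 35 other unfolded protein response genes, Ero1l and Syvn1, the ubiquitin ligase of ER-associated degradation, were higher with TME-CM at 24 h, Syvn1 at 31.5 ± 4.24 CPM against 19.4 ± 2.44 CPM (log2 0.68, SE 0.17, adjusted p = 0.0087), and 0 were lower.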

How the data were processed

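QuantSeq 3′ mRNA libraries were sequenced, and the authors checked reads with FastQC 0.11.7, removed adapters (fastq-mcf), mapped them by HISAT2 to the mm10 build, dropped reads with several hits, used SAMtools 1.5 and counted with HT-seq Count. They deposited whole-number counts per gene symbol without normalization. Neither the annotation nor the strandedness of counting nor any molecular identifier is given in the sources used here. The counts were fitted by edgeR 4.0.16 under R 4.3.3. Genes were kept by filterByExpr (minimum count 10), totals scaled by TMM, and a robust quasi-likelihood model with a mean per group fitted to the 12 libraries of a time point, or to the 24 libraries of 2 time points for contrasts over time. A gene was called at an adjusted p under 0.05 (Benjamini-Hochberg over all genes tested). Scores are mean log2 CPM with a prior count of 2. The scripts were tested on simulated data.

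Members and gene lists were chosen with earlier results of these data known. Members given in full are those called in TME-CM against H-CM at 12 h or 24 h, with the smallest p-values there added up to 10, and, chosen after their values were seen, Slc7a5, Mthfd2, Chac1, Asns and Psat1, called elsewhere. Other pathway genes are named where called in those comparisons. Positions and exon overlaps come from GENCODE for GRCm38, the assembly also called mm10: 10 members share exon bases with another gene, 3 of them on the same strand. Symbols of 79 of the 80 other pathway genes matched. Alternatives were DESeq2 1.42.0 (size factors, Wald test), no filter, all 36 libraries in one model, only the 2 groups compared, the replicate number as a block, Yam1 left out, a prior count of 0.5, variance-stabilized values, and each library left out in turn.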

Additional observations from a re-analysis of the deposited data

Results flagged for a closer look

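Of 153 sets of 4 libraries (15 members and 2 scores in 9 groups), 9 held a library that stood apart from the other 3 by Dixon's test, where chance flags about 1 in 20. Creld2 was at 175 CPM in TME-CM replicate 3 of 6 h beside 8.64 to 21.3 CPM, at 41.0 CPM in unstimulated replicate 4 of 6 h beside 10.5 to 15.7 CPM, and at 22.9 CPM in unstimulated replicate 1 of 12 h beside 35.0 to 37.1 CPM. Psat1 was at 297 CPM in TME-CM replicate 3 of 6 h beside 78.0 to 100 CPM. Xbp1 was at 93.7 CPM in unstimulated replicate 3 of 12 h beside 63.9 to 69.0 CPM. Phgdh was at 20.6 CPM in TME-CM replicate 4 of 12 h beside 9.80 to 10 CPM. Mthfd2 was at 73.7 CPM in TME-CM replicate 2 of 24 h, whose Yam1 share of 35.1% was the highest of that time point, beside 92.3 to 93.6 CPM. Slc7a5 was at 10.5 CPM, from 2 counts, in unstimulated replicate 3 of 6 h beside 24.1 to 25.1 CPM. The folding score was -1.31 in H-CM replicate 4 of 6 h, the library of 13518 counts, beside -0.35 to -0.24.

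Asns differed in direction between times. All H-CM libraries lay above the unstimulated ones at 6 h (log2 0.49, the highest H-CM value resting on 2 counts) and below them at 24 h (log2 -0.69). The difference between these times was not tested.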

How the results depend on the processing

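A model of all 36 libraries changed the counts of members called most: from 0 to 5 in TME-CM against H-CM at 6 h, from 1 to 0 at 12 h, from 0 to 2 in TME-CM against unstimulated EGCs at 6 h, from 6 to 0 at 24 h, from 2 to 0 in H-CM against unstimulated EGCs at 24 h, and from 1 to 0 in TME-CM EGCs between 12 h and 24 h; the cause was not tested, and the common dispersion ran from 0.572 for the earliest to 0.0455 for the latest time point. The 5 members gained in TME-CM against H-CM at 6 h were Atf5, Creld2 and Ppp1r15a as higher and Manf and Mthfd2 as lower. Those gained in TME-CM against unstimulated EGCs at 6 h were Ppp1r15a as higher and Phgdh as lower. With no filter on low counts the calls were 1 (TME-CM against H-CM, 6 h), 3 (12 h), 4 (H-CM against unstimulated, 24 h), 1 (unstimulated, 24 h against 12 h) and 0 (TME-CM, 24 h against 12 h). DESeq2 gave 2 at 12 h and 1 at 24 h for TME-CM against H-CM, 4 for H-CM against unstimulated at 24 h and 1 for unstimulated EGCs over time, and only the 2 groups compared gave 1 (TME-CM against H-CM, 6 h) and 4 (H-CM against unstimulated, 24 h). Leaving out each library gave 0 to 1 calls in TME-CM against H-CM at 6 h, 0 to 2 at 12 h and 0 to 1 at 24 h, 0 to 3 in H-CM against unstimulated at 24 h, 0 to 1 in unstimulated and 0 to 2 in TME-CM EGCs over time. Without the 2 libraries under 500000 counts, a choice made after the data were seen, 0 members were called at 6 h. On variance-stabilized values the amino acid score differences at 24 h were -0.32 (TME-CM minus unstimulated) and -0.25 (H-CM minus unstimulated). The 6 calls in TME-CM against unstimulated at 24 h were 8 by DESeq2 (1 higher, 7 lower), 7 with no filter, 7 with the replicate block and 5 to 8 on leaving out a library. No direction of a called value reversed under the alternatives run.

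Libraries with the same replicate number deviated together at most weakly (r of -0.10 to 0.13 at 6 h, -0.04 to 0.23 at 12 h and -0.16 to 0.13 at 24 h, 6 of 36 pairs over 0.1). Their mean r was 0.013, 0.056 and 0.040 at these times, beside -0.003, -0.015 and -0.011 for libraries with other numbers. For the latter r ran from -0.31 to 0.16, -0.26 to 0.27 and -0.21 to 0.26. The numbers were not taken as pairing. With the replicate block, 2 members were called in TME-CM against H-CM at 12 h in place of 1, and 3 in H-CM against unstimulated at 24 h in place of 2. At 6 h H-CM replicate 4 held 103 counts over all members.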
